A study of Mus musculus with 6 samples.

Results

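Matricellular proteins and stretch-responsive genes activated by YAP form the set described here, as rows of the deposited table carrying 10 chosen gene symbols: Ctgf, Cyr61, Thbs1, Sparc, Tgfbi, Fn1, Spp1, Adamts1, Amotl2 and Ankrd1. All 10 are among the 24346 symbols of the table, and 9 of them reached the level at which genes were tested, averaging 1 FPKM or more (12090 genes in all). FPKM count sequenced fragments relative to transcript length and to the size of the library, so levels of different genes can be compared. The libraries were made from kidneys of C57BL/6 mice, 3 after the surgery that the labels name IVCC and 3 after Sham surgery. The labels leave the abbreviation IVCC unexplained, and the study as a whole concerns renal congestion. Neither age, sex, genotype nor time after surgery is given in the sources used here. Nothing there says that the replicates were separate mice, and the p-values therefore reflect only how much these libraries vary, which may be technical.

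Matricellular proteins are secreted into the extracellular matrix, where they act on cell surface receptors and growth factors more than as structural scaffold. YAP and its relative TAZ are transcriptional coactivators held in check by the Hippo kinases. When cells are stretched, spread or placed on a stiff matrix, YAP and TAZ enter the nucleus and, bound to TEAD transcription factors, switch on genes such as Ctgf, Cyr61, Ankrd1 and Amotl2. In the kidney, CTGF and fibronectin are well known from scarring glomeruli and interstitium, and osteopontin, the product of Spp1, is made by tubules and secreted into urine.

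The promoters of Cyr61, Ankrd1 and Amotl2 are shown because these are widely used readouts of YAP and each holds the core element bound by TEAD factors. The element searched was GGAATG on either strand (CATTCC on the strand printed is the same element), in the 250 bases before the transcription start that RefSeq gives. The RefSeq promoter table (GRCm38.p6) had entries for 7 of the 10 members, all but Ctgf, Thbs1 and Fn1. The element lay in the promoters of 3 of these 7 genes, Cyr61, Ankrd1 and Amotl2, and in none of the promoters listed for Sparc, Tgfbi, Adamts1 and Spp1. Of all 32851 promoter windows in that table, 12.6% held it. Each window is printed 5′ to 3′ on the strand of its gene, with the element in capitals.
Cyr61 (chr3:145649986-145650235, minus strand): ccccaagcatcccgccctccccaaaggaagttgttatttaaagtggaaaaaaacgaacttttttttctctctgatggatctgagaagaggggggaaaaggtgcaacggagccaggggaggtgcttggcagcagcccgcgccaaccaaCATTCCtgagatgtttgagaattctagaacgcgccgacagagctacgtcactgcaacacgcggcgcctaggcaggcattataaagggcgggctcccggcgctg
Ankrd1 (chr19:36119845-36120094, minus strand): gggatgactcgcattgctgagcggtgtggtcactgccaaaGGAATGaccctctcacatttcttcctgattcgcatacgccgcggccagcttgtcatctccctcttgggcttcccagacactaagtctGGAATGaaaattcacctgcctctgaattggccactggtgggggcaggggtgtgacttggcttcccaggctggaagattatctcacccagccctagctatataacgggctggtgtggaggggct
Amotl2 (chr9:102717554-102717803, plus strand): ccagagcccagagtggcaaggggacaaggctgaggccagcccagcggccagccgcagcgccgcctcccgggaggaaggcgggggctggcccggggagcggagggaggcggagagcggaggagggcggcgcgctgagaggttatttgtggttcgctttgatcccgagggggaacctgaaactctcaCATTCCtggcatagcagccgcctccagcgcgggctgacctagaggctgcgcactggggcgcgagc
The gene positions given further on are from GENCODE and can use another start, so that the Amotl2 and Ankrd1 windows lie inside the GENCODE spans of those genes. In Cyr61 the element begins 103 bases before the start, in Amotl2 65 bases before it, and Ankrd1 holds 2 copies, 210 and 123 bases before it. A match of these letters is a description of the window and does not show that a factor binds there.

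No gene was called in the comparison of IVCC with Sham kidneys. The test (limma on log2(FPKM + 1), Benjamini-Hochberg adjustment over the 12090 genes, threshold 0.05) called 0 of them, or 0%, and the smallest adjusted p was 0.790. Before adjustment, p was under 0.05 for 205 genes higher in IVCC and 226 lower, 1.7% and 1.87% of those tested. FPKM carry no read totals. Nominal sizes inferred from the spacing of low values were 8200000 to 9120000 reads for the IVCC libraries and 6120000 to 7160000 reads for the Sham libraries, with each IVCC library above each Sham library. The 6 libraries carried kidney markers throughout, from the proximal tubule (summed level of 5 markers, 4106.5 to 4487.4 FPKM in IVCC kidneys and 3745.0 to 4409.2 FPKM in Sham kidneys) to the thick ascending limb (4 markers, 1279.2 to 1436.2 FPKM in IVCC kidneys and 1038.7 to 1935.3 FPKM in Sham kidneys).

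The members spanned more than 3 orders of magnitude in level. Spp1 stood far above the others, between 609.1 and 791.6 FPKM over the 6 libraries and above 98.5% of the tested genes in its mean. Sparc came next and exceeded Ctgf in 6 of 6 libraries, although their ranges over libraries overlapped (30.2 to 57.8 FPKM for Sparc and 21.6 to 44.4 FPKM for Ctgf). Amotl2, Cyr61, Adamts1 and Thbs1 followed without a firm order, since Amotl2 exceeded Cyr61 in 4 of 6 libraries, Cyr61 exceeded Adamts1 in 5 and Adamts1 exceeded Thbs1 in 4. Thbs1 exceeded Tgfbi in 6 of 6 libraries and Tgfbi exceeded Fn1 in 5. Ankrd1 was at the bottom, between 0.104 and 0.354 FPKM, apart from the range of every other member.

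**Figure D1:**
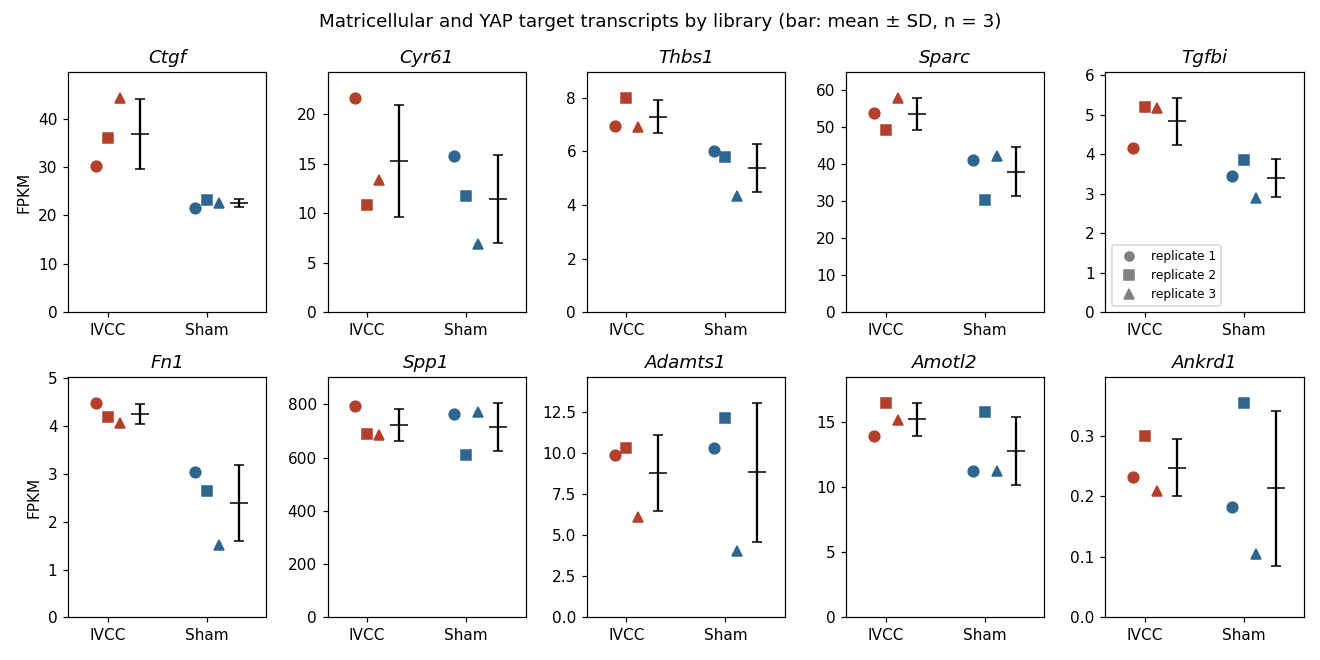
FPKM of the 10 members by library, one panel per gene, with the 3 IVCC libraries on the left and the 3 Sham libraries on the right of each panel; marker shapes give the replicate number and the black bars the mean ± SD (n = 3). The 3 IVCC values of Ctgf, Thbs1, Sparc, Tgfbi and Fn1 lie above all 3 Sham values, and the groups of the other 5 members overlap.

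For 5 of the 9 members tested, Ctgf, Fn1, Sparc, Tgfbi and Thbs1, every IVCC value lay above every Sham value, as it did for 4.09% of all tested genes. The same 5 had an unadjusted limma p under 0.05. None of the 9 passed the adjustment over all genes (adjusted p 0.924 to 0.986). All 9 had a higher fitted value in IVCC (8 after adjusting each library for transcript length and GC content, where Adamts1 was lower), against 48.4% of all genes tested, and their median log2 fold change was 0.40 against -0.01 over all genes. The members were put together with results of these data known, so these counts describe the set and do not test it.

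**Figure D2:**
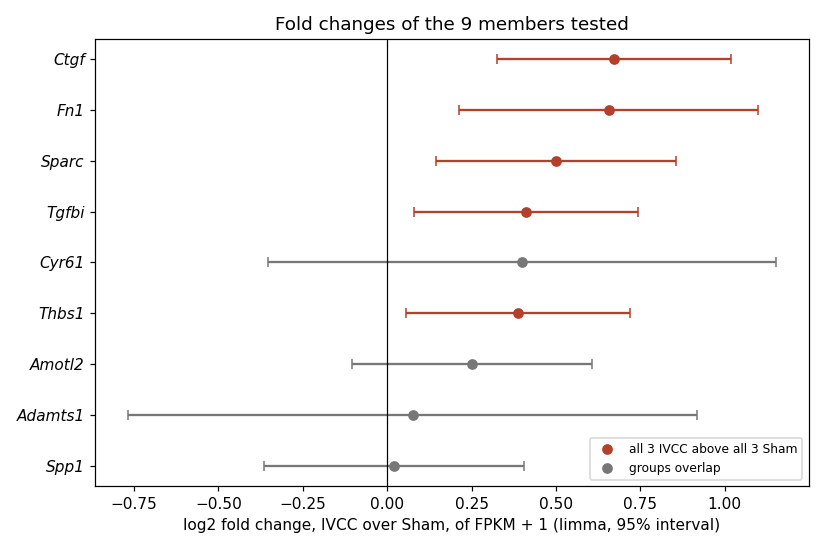
Log2 fold change of FPKM + 1, IVCC over Sham, of the 9 members tested (points) with 95% intervals from limma (bars); red marks genes whose 3 IVCC values all lie above the 3 Sham values. The fold changes run from 0.02 for Spp1 to 0.67 for Ctgf, and the intervals of Cyr61, Amotl2, Adamts1 and Spp1 include 0.

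Ctgf and Cyr61 encode CCN proteins, cysteine-rich matricellular signals that bind integrins and are textbook YAP targets. Ctgf (called Ccn2 in the annotation, ENSMUSG00000019997.11, chromosome 10, 24595442 to 24598683, plus strand of GRCm38, 5 exons) had 30.1, 36.0 and 44.4 FPKM in the IVCC libraries, against 21.6, 23.2 and 22.7 FPKM in the Sham libraries. The Sham values were nearly level while the IVCC values were spread out, and the lowest IVCC value was 6.90 FPKM above the highest Sham value. The coefficient of variation of Ctgf was 19.4% in IVCC and 3.72% in Sham, and the ratio of the means was 1.64. Its log2 fold change of 0.67 (SE 0.15, 95% interval 0.32 to 1.02) had the smallest unadjusted p of the members, rank 25 among the 12090 genes, and an adjusted p of 0.924 in limma.

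Cyr61 (Ccn1 in the annotation, ENSMUSG00000028195.4, chromosome 3, 145646976 to 145649981, minus strand, 5 exons) had 21.7, 10.8 and 13.4 FPKM in the IVCC libraries, against 15.7, 11.7 and 6.85 FPKM in the Sham libraries. The groups overlapped, with the highest value in IVCC replicate 1 and the lowest in Sham replicate 3. Within a group Cyr61 varied by 37.2% (coefficient of variation, IVCC) and 38.9% (Sham), and its log2 fold change was 0.40 (SE 0.32, 95% interval -0.35 to 1.15, adjusted p = 0.924 in limma). The fold change was 0.10 without Sham replicate 3 and 0.65 without Sham replicate 1. The ratio of Ctgf to Cyr61 was 1.39, 3.34 and 3.31 in IVCC and 1.37, 1.98 and 3.31 in Sham, so that the balance between the CCN transcripts differed more within each group than between them.

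Among the other matricellular genes, Thbs1 encodes thrombospondin 1, which can activate latent TGF-beta and restrains angiogenesis. Thbs1 (ENSMUSG00000040152.8, chromosome 2, 118111876 to 118127133, plus strand, 22 exons) had 6.96, 8.01 and 6.93 FPKM in the IVCC libraries, against 6.005, 5.78 and 4.34 FPKM in the Sham libraries. The groups stood apart by 0.924 FPKM, and Sham replicate 3 was the lowest. The log2 fold change of Thbs1 was 0.39 (SE 0.14, adjusted p = 0.924 in limma), and 0.26 after adjusting each library for the length and GC content of transcripts.

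Sparc encodes osteonectin, a collagen-binding glycoprotein that helps assemble matrix. Sparc (ENSMUSG00000018593.13, chromosome 11, 55394500 to 55423183, minus strand, 12 exons) had 53.7, 49.0 and 57.8 FPKM in the IVCC libraries, against 41.1, 30.2 and 42.2 FPKM in the Sham libraries. The IVCC values were close together and all above the Sham values, of which replicate 2 was the lowest. The ratio of the means was 1.41 and the log2 fold change 0.50 (SE 0.15, 95% interval 0.14 to 0.86, adjusted p = 0.924 in limma).

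Tgfbi encodes a secreted protein induced by TGF-beta that links collagens to integrins. Tgfbi (ENSMUSG00000035493.10, chromosome 13, 56609523 to 56639562, plus strand, 17 exons) had 4.15, 5.20 and 5.17 FPKM in the IVCC libraries, against 3.44, 3.85 and 2.88 FPKM in the Sham libraries. Its groups were the closest of those without overlap, with 0.304 FPKM between the lowest IVCC and the highest Sham value. The log2 fold change was 0.41 (SE 0.14, adjusted p = 0.924 in limma).

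Fn1 encodes fibronectin, a large glycoprotein of the provisional matrix on which cells pull through integrins. Fn1 (ENSMUSG00000026193.15, chromosome 1, 71585520 to 71653200, minus strand, 46 exons in its longest transcript by exon count) had 4.49, 4.20 and 4.07 FPKM in the IVCC libraries, against 3.04, 2.64 and 1.51 FPKM in the Sham libraries. The IVCC libraries were nearly level (coefficient of variation 5.05%) and the Sham libraries were not (33.0%). Fn1 had the highest ratio of means of the 10 members, 1.77, and a log2 fold change of 0.66 (SE 0.19, 95% interval 0.21 to 1.10, adjusted p = 0.924 in limma).

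Spp1, which encodes the phosphorylated matricellular protein and cytokine osteopontin, was the most abundant member and showed little difference between the groups. Spp1 (ENSMUSG00000029304.14, chromosome 5, 104435118 to 104441050, plus strand, 8 exons) had 791.6, 688.4 and 685.2 FPKM in the IVCC libraries, against 762.0, 609.1 and 771.3 FPKM in the Sham libraries. Each IVCC value lay near or within the Sham range. The log2 fold change was 0.02 with a 95% interval of -0.37 to 0.41 (adjusted p = 0.986 in limma), which includes changes of either sign. The fitted value was lower in IVCC without IVCC replicate 1 or Sham replicate 2.

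Adamts1 encodes a secreted metalloprotease that cleaves proteoglycans and thrombospondins. Adamts1 (ENSMUSG00000022893.14, chromosome 16, 85793827 to 85803113, minus strand, 9 exons) had 9.88, 10.3 and 6.11 FPKM in the IVCC libraries, against 10.3, 12.1 and 4.05 FPKM in the Sham libraries. The libraries numbered 3 were the low ones in both groups. Its mean was 8.77 ± 2.32 FPKM in IVCC kidneys and 8.83 ± 4.24 FPKM in Sham kidneys (SD, n = 3 each), whereas the log2 fold change was 0.08 (95% interval -0.77 to 0.92, adjusted p = 0.972 in limma), so the means and the fit differ in sign.

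Amotl2 and Ankrd1 act inside the cell. Amotl2 encodes a junction protein of the angiomotin family, which is both induced by YAP and able to hold it in the cytoplasm. Amotl2 (ENSMUSG00000032531.15, chromosome 9, 102716672 to 102733418, plus strand, 11 exons) had 14.0, 16.5 and 15.2 FPKM in the IVCC libraries, against 11.2, 15.8 and 11.3 FPKM in the Sham libraries. Sham replicate 2 reached the IVCC range and the other Sham libraries lay below it. The log2 fold change was 0.25 (SE 0.15, 95% interval -0.10 to 0.61, adjusted p = 0.924 in limma), and 0.40 without Sham replicate 2.

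Ankrd1 encodes a nuclear ankyrin repeat protein best known from stretched heart and skeletal muscle. Ankrd1 (ENSMUSG00000024803.9, chromosome 19, 36111961 to 36120099, minus strand, 9 exons) had 0.232, 0.300 and 0.209 FPKM in the IVCC libraries, against 0.182, 0.354 and 0.104 FPKM in the Sham libraries. At the nominal library sizes these levels correspond to between 3.27 and 4.39 reads per IVCC library and between 1.09 and 4.36 per Sham library. Ankrd1 was below the level tested. With no filter on low values its log2 fold change was 0.04 (SE 0.08, 95% interval -0.16 to 0.25, adjusted p = 0.931 in limma), on a scale that understates changes at so low a level.

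The members did not follow one profile across the libraries. Sham replicate 3 was the lowest of the 6 libraries for 5 of the 9 tested members (Cyr61, Thbs1, Fn1, Tgfbi and Adamts1), and it also had the smallest nominal size. IVCC replicates 1, 2 and 3 held the highest value of 3, 3 and 2 members, and Sham replicate 2 that of Adamts1. Ctgf peaked in IVCC replicate 3 (0.61 above its mean on the log2(FPKM + 1) scale), Cyr61 in IVCC replicate 1 (0.73 above) and Thbs1 in IVCC replicate 2 (0.32 above). The part of the library differences in these levels was not tested.

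**Figure D3:**
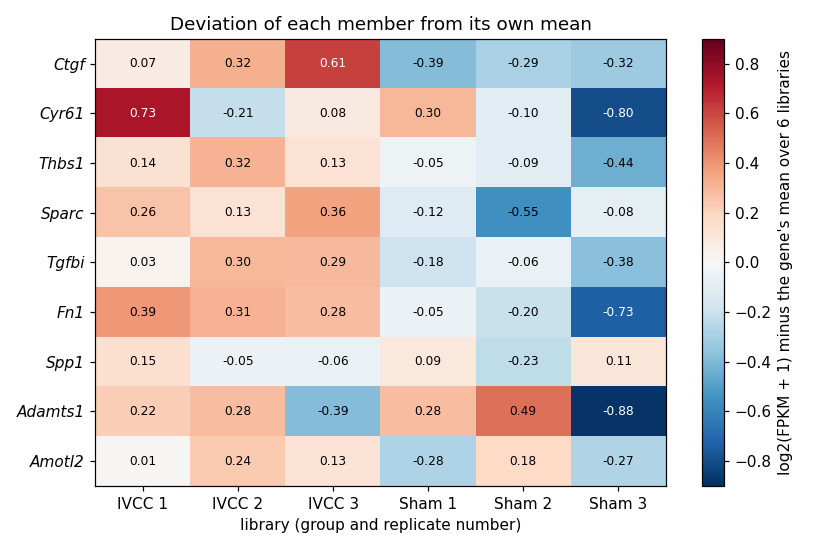
Log2(FPKM + 1) of each tested member (rows) in each library (columns, IVCC left, Sham right) minus the mean of that gene over the 6 libraries, printed in each cell; red is above and blue below the mean. Ctgf, Thbs1, Sparc, Tgfbi and Fn1 are above their mean in all 3 IVCC libraries and below it in all 3 Sham libraries, whereas Adamts1 is lowest in Sham replicate 3 (-0.88) and highest in Sham replicate 2 (0.49).

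The genes most like Ctgf, Cyr61 and Thbs1 were taken by Pearson correlation of log2(FPKM + 1) over the 6 libraries, among 11309 named genes. Such values are a description of 6 libraries in 2 groups, and 7 genes reached 0.95 with Ctgf, 9 with Cyr61 and 63 with Thbs1. Cyr61 was most like Jun (r = 0.994), which encodes an AP-1 transcription factor induced within minutes of many stimuli, followed by Trim46 (0.988) and Nlk (0.981). Jun had 11.98, 7.44 and 8.11 FPKM in the IVCC libraries, against 9.66, 7.26 and 5.002 FPKM in the Sham libraries. It ranked the libraries as Cyr61 did at both ends, with IVCC replicate 1 highest and Sham replicate 3 lowest. Ctgf was most like Incenp (r = 0.986), Cog1 (0.972) and Timeless (0.961), and Thbs1 most like Numb (0.991), Smad3 (0.990) and C1s1 (0.989). Timeless had 1.11, 1.28 and 1.29 FPKM in the IVCC libraries, against 0.71, 0.843 and 0.772 FPKM in the Sham libraries. It reached the level tested only through its IVCC values, so its likeness to Ctgf carries no weight. Smad3, which encodes a transcription factor of the TGF-beta pathway, had 7.19, 7.82 and 6.88 FPKM in the IVCC libraries, against 6.27, 6.21 and 5.31 FPKM in the Sham libraries.

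The regulators upstream of these genes were close in level between the groups. Yap1, the coactivator itself, averaged 20.2 ± 0.725 FPKM in IVCC kidneys and 18.6 ± 1.49 FPKM in Sham kidneys, and Wwtr1, which encodes TAZ, 15.2 ± 0.550 FPKM in IVCC kidneys and 13.9 ± 0.344 FPKM in Sham kidneys (SD, n = 3 each). All 3 Wwtr1 values of IVCC lay above those of Sham, as for 4.09% of all tested genes, with a log2 fold change of 0.11 (SE 0.10, adjusted p = 0.924 in limma). Among the TEAD genes, Tead1 averaged 7.27 FPKM in IVCC kidneys and 6.59 FPKM in Sham kidneys, and Tead3 7.45 FPKM in IVCC kidneys and 7.34 FPKM in Sham kidneys. Tead2 (1.001 FPKM in IVCC kidneys and 0.831 FPKM in Sham kidneys) and Tead4 (0.211 FPKM in IVCC kidneys and 0.0983 FPKM in Sham kidneys) were below the level tested.

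Of 26 Hippo pathway genes 22 were tested, and 0 passed in either direction. Their fitted value was higher in IVCC for 21 and lower for Sav1, with a median log2 fold change of 0.14. Over all tested genes 48.4% had a higher fitted value. After the length and GC adjustment the Hippo split was 18 and 4, with a median of 0.098. Amotl1, counted among the 21, reached the level tested only through its IVCC values. Its means were 1.31 FPKM in IVCC kidneys and 0.900 FPKM in Sham kidneys. Taok3, an upstream kinase of the pathway, had 5.35, 5.25 and 4.51 FPKM in the IVCC libraries, against 3.94, 3.89 and 4.06 FPKM in the Sham libraries, with no overlap. Taok3 and Wwtr1 were the genes of the list higher without overlap, 9.09% against 4.09% of all tested genes. Vgll4, a competitor of YAP for TEAD, had 6.24, 7.33 and 2.60 FPKM in the IVCC libraries, against 2.88, 3.05 and 2.99 FPKM in the Sham libraries, so that IVCC replicate 3 was the lowest of all 6. Mob1a, an adaptor of the LATS kinases, had 7.48, 13.02 and 3.52 FPKM in the IVCC libraries, against 4.71, 5.80 and 1.56 FPKM in the Sham libraries, with the libraries numbered 3 low in both groups. Pathway activity is set by phosphorylation and localisation of these proteins, which RNA levels do not measure.

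Among 20 further YAP target genes 16 were tested, of which 13 had a higher and 3 a lower fitted value in IVCC (median log2 fold change 0.13), and 0 passed. Higher fitted values made up 81.2% of those tested, against 48.4% of all tested genes. After the length and GC adjustment the split was 10 higher and 6 lower, with a median of 0.02. Igfbp3, a binding protein of insulin-like growth factors, had 93.5, 112.3 and 107.3 FPKM in the IVCC libraries, against 78.0, 69.0 and 58.6 FPKM in the Sham libraries. Axl, a receptor tyrosine kinase, had 4.45, 4.89 and 4.79 FPKM in the IVCC libraries, against 3.74, 3.66 and 3.39 FPKM in the Sham libraries. Arhgef17 was the other gene of the list without overlap, at 3.23 ± 0.286 FPKM in IVCC kidneys and 2.70 ± 0.122 FPKM in Sham kidneys (SD, n = 3 each). Igfbp3, Axl and Arhgef17 are 18.8% of the list's tested genes, against 4.09% of all tested genes that lay higher without overlap. The limma log2 fold changes were 0.60 for Igfbp3, 0.31 for Axl and 0.19 for Arhgef17, each with an adjusted p of 0.924. Nt5e and Gadd45a went the other way, with fitted log2 fold changes of -0.26 and -0.25 and overlapping groups. Lats2 and Ptpn14 are in both this list and the Hippo list, so the counts of the lists are not independent.

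**Figure D4:**
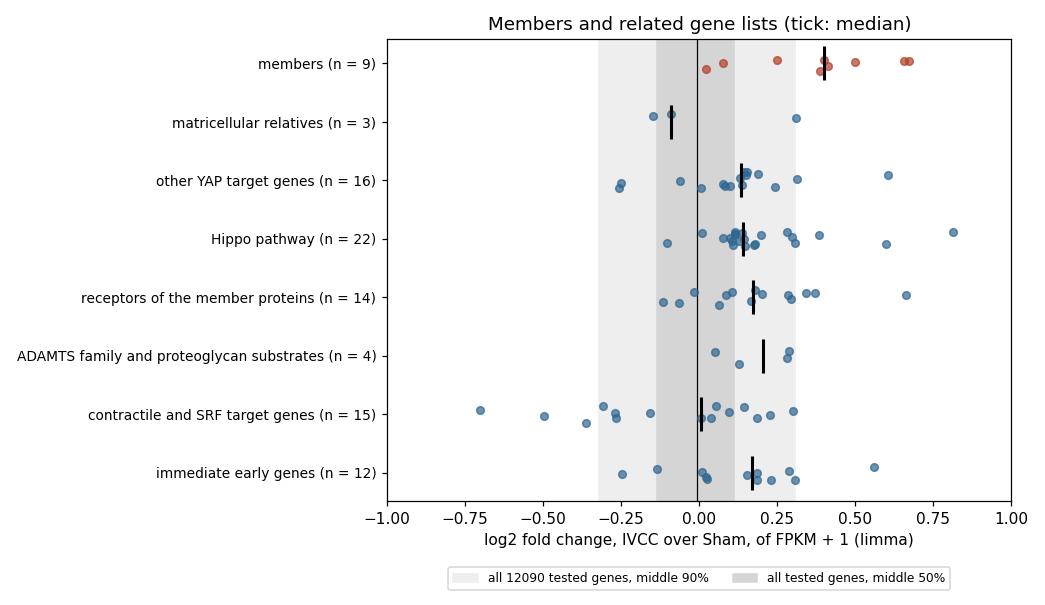
Log2 fold change of FPKM + 1, IVCC over Sham, of each tested gene (points) in the member set and in 7 related gene lists, with the median of each list as a black tick; the grey bands hold the middle 90% and 50% of all tested genes and the line their median. The median of the members is 0.40, those of the other lists run from -0.09 to 0.20, and no gene plotted passed the adjusted threshold. Lats2 and Ptpn14 are plotted in both the Hippo pathway list and the list of other YAP target genes.

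Other matricellular genes were mostly scarce in these kidneys, since only 3 of 19 reached the level tested. Mgp, an inhibitor of calcification, had 193.5, 148.7 and 211.6 FPKM in the IVCC libraries, against 157.0, 136.3 and 148.3 FPKM in the Sham libraries. Sparcl1, a relative of Sparc, averaged 8.02 ± 1.89 FPKM in IVCC kidneys and 8.91 ± 1.24 FPKM in Sham kidneys, and Smoc2 1.24 ± 0.582 FPKM in IVCC kidneys and 1.38 ± 0.594 FPKM in Sham kidneys (SD, n = 3 each). The fitted values were thus higher in IVCC for 1 and lower for 2 of them, and 0 passed. Rescaled to TPM, 5 of the 19 reached the level tested, 4 with a higher fitted value. Under that scaling 79% of all tested genes had a higher fitted value, so this count is near the general share.

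Receptors through which the member proteins act included 18 genes, 14 of them tested, with 11 higher and 3 lower fitted values (median log2 fold change 0.17) and 0 past the test. That is 78.6% higher, against 48.4% of all tested genes. Itga8, the integrin subunit of mesangial cells that pairs with beta 1 to bind fibronectin and osteopontin, had 2.51, 3.14 and 2.60 FPKM in the IVCC libraries, against 1.63, 2.08 and 2.005 FPKM in the Sham libraries. Itga9 (2.02 ± 0.0897 FPKM in IVCC kidneys and 1.42 ± 0.525 FPKM in Sham kidneys) and Lrp1 (1.98 ± 0.0734 FPKM in IVCC kidneys and 1.45 ± 0.140 FPKM in Sham kidneys), an endocytic receptor for CTGF and thrombospondin, also had no overlap (SD, n = 3 each). Itga8, Itga9 and Lrp1 are 21.4% of the receptor genes tested, against 4.09% of all tested genes. The abundant receptors Itgb1, Cd36, Cd47 and Sdc4 all had overlapping groups.

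Of 9 ADAMTS family, substrate and inhibitor genes 4 were tested, all with higher fitted values in IVCC (median log2 fold change 0.20, but only 2 of 4 higher and a median of 0.06 after the length and GC adjustment) and 0 past the test. Over all tested genes 48.4% had a higher fitted value and 4.09% lay higher without overlap. Adamts5, an aggrecanase, averaged 2.51 ± 0.229 FPKM in IVCC kidneys and 1.89 ± 0.306 FPKM in Sham kidneys and had no overlap, Adamts9 averaged 2.86 ± 0.0510 FPKM in IVCC kidneys and 2.57 ± 0.581 FPKM in Sham kidneys, and Timp3, a matrix-bound inhibitor of metalloproteases, 566.2 ± 50.3 FPKM in IVCC kidneys and 466.5 ± 47.8 FPKM in Sham kidneys (SD, n = 3 each).

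Contractile genes and targets of SRF, another mechanically regulated transcription factor, were split, with 8 higher and 7 lower fitted values among 15 tested, a median log2 fold change of 0.01 and 0 past the test. Their share with a higher fitted value, 53.3%, was near the 48.4% of all tested genes. The split was 5 higher and 10 lower after quantile normalization. Cnn1, a smooth muscle calponin, had 1.09, 0.197 and 0.670 FPKM in the IVCC libraries, against 1.67, 1.55 and 1.64 FPKM in the Sham libraries. Every IVCC value of Cnn1 lay below the Sham values, as it did for 4.22% of all tested genes. Cnn1 reached the level tested only through its Sham values (means of 0.651 FPKM in IVCC kidneys and 1.62 FPKM in Sham kidneys), so its difference carries no weight as a test. Tpm1, a tropomyosin, also lay lower without overlap, at 54.5 ± 5.92 FPKM in IVCC kidneys and 65.6 ± 4.33 FPKM in Sham kidneys, while Myh9, the non-muscle myosin heavy chain, lay higher without overlap, at 27.5 ± 2.90 FPKM in IVCC kidneys and 22.1 ± 1.74 FPKM in Sham kidneys (SD, n = 3 each). Among all tested genes 4.09% lay higher without overlap. The limma log2 fold changes were -0.70 for Cnn1, -0.27 for Tpm1 and 0.30 for Myh9, each with an adjusted p of 0.924.

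Of 17 immediate early genes 12 were tested, with 10 higher and 2 lower fitted values (median log2 fold change 0.17), 0 past the test and overlapping groups throughout. The higher ones were 83.3% of those tested, against 48.4% of all tested genes. After quantile normalization 7 were higher and 5 lower. Besides Jun, the smallest p-values were those of Egr1, at 3.33, 0.937 and 4.31 FPKM in the IVCC libraries, against 2.18, 1.06 and 1.13 FPKM in the Sham libraries, and Ier2, at 7.95 ± 1.497 FPKM in IVCC kidneys and 6.36 ± 1.44 FPKM in Sham kidneys (SD, n = 3 each). Egr1 was lowest in IVCC replicate 2, as Cyr61 was among the IVCC libraries.

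Many members are made mainly by stromal, glomerular and vascular cells. The summed markers of fibroblasts, podocytes and endothelium lay higher in IVCC kidneys without overlap, whereas those of mural and mesangial cells overlapped and had a higher fitted value for 3 of 6 genes. In bulk tissue, a change in the number of cells of a type and a change in their RNA per cell cannot be told apart. The summed level of 6 fibroblast markers was 37.1 to 42.8 FPKM in IVCC kidneys and 31.9 to 35.3 FPKM in Sham kidneys, with 4 of 5 tested markers higher without overlap, against 4.09% of all tested genes. That of 5 podocyte markers was 51.4 to 92.4 FPKM in IVCC kidneys and 42.5 to 44.7 FPKM in Sham kidneys, with 3 of 5 higher without overlap, against the same 4.09%. That of 6 endothelial markers was 90.8 to 98.5 FPKM in IVCC kidneys and 79.2 to 89.1 FPKM in Sham kidneys, with 2 of 6 higher without overlap, against the same 4.09%. The part of these 3 marker lists in the levels of Ctgf, Thbs1, Sparc, Tgfbi and Fn1 was not tested. Of 5 macrophage markers tested, 4 had a higher fitted value in IVCC and 2 lay higher without overlap, against 48.4% and 4.09% of all tested genes. The sums of 5 macrophage markers (74.4 to 91.1 FPKM in IVCC kidneys and 66.9 to 75.7 FPKM in Sham kidneys) and of 6 mural and mesangial markers (35.5 to 61.7 FPKM in IVCC kidneys and 50.9 to 64.9 FPKM in Sham kidneys) overlapped. So did those of 5 distal and collecting duct markers (682.1 to 821.8 FPKM in IVCC kidneys and 579.1 to 874.9 FPKM in Sham kidneys), 5 platelet markers (3.31 to 5.79 FPKM in IVCC kidneys and 3.14 to 6.71 FPKM in Sham kidneys) and 4 erythroid markers (59.7 to 109.0 FPKM in IVCC kidneys and 84.8 to 115.1 FPKM in Sham kidneys). Urothelial markers summed to 0.637 to 1.29 FPKM in IVCC kidneys and 0.501 to 7.96 FPKM in Sham kidneys, the highest in Sham replicate 3. The sum of 4 fat markers was 74.8 to 139.0 FPKM in IVCC kidneys and 85.9 to 140.3 FPKM in Sham kidneys, with overlap. It was highest within each group in the library numbered 3. Of these markers, Adipoq and Plin1 were listed at 0 in all 6 libraries, and 1 of the 4 reached the level tested.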

How the data were processed

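Single-end reads of 75 bp came from 6 strand-specific mRNA libraries of mouse kidney, as the labels' protocols describe. The values are FPKM as deposited by the authors in a single table. The submitters' processing notes name mm10 as the build and, with no roles, the tools Cufflinks 2.2.1, TopHat2 2.0.13, SAMtools 0.1.19 and Bowtie2 2.2.3. Which annotation, filter or scaling was applied is not given in the sources used here. Columns were tied to libraries by the sample titles.

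The 12090 of 24346 genes that averaged 1 FPKM or more were compared on log2(FPKM + 1), which understates the change of low genes, with a two-sided test in limma 3.58.1 (R 4.3.3, eBayes with a mean-variance trend, Benjamini-Hochberg adjustment over all tested genes, threshold 0.05). The code was tested on simulated data. With 3 libraries a group, exact permutation allows no p below 0.1, so it was not used. FPKM give no depth. Nominal library sizes were the values at which low FPKM (0.01 to 0.1) of transcripts of 1500 to 5000 bp came closest to whole reads, with an assumed fragment length of 200 bp; 60.8% to 64.5% of such values were then whole within 0.1 read, too few for a count test. Positions are from GENCODE M21 (GRCm38, the assembly of mm10), transcript lengths and GC content are medians over its basic transcripts, and 99.1% of tested genes had them.

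The members and gene lists were chosen with earlier results of these data known. The genes named were all members, the YAP, TAZ and TEAD genes, and from each related list the 3 with the smallest p and any with an unadjusted p under 0.05. Sav1, Amotl1, Nt5e, Gadd45a and the abundant receptors were added after their values were seen. Lats2 and Ptpn14 are named only because lists share them. Markers of 12 cell types were fixed with the lists; 2 marker symbols (Emr1 and Hbb-bt) did not match a row. Alternatives were other pseudocounts (0.1 and 5), other filters (none, or 5 FPKM), rescaling (to TPM, by quantiles and by median ratio), eBayes without the trend and robust, the replicate number as a block, a correction for length and GC content with and without the block, and each library left out in turn. Leaving out both libraries numbered 3 was added after the data had been seen.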

Additional observations from a re-analysis of the deposited data

How the results depend on the processing

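No member was called under any of the 19 alternatives. Ctgf, Sparc and Fn1 kept a positive log2 fold change and an unadjusted limma p under 0.05 wherever they were tested, over ranges of 0.53 to 0.85, 0.35 to 0.68 and 0.33 to 0.86, while Thbs1 (0.25 to 0.55) and Tgfbi (0.23 to 0.56) stayed positive with an unadjusted p under 0.05 in 14 of 19 and 13 of 18 settings. With 1 library left out, the fold change of Adamts1 ran from -0.35 to 0.34 and that of Spp1 from -0.090 to 0.080. Adamts1 was also negative after the length and GC correction, without and with the replicate block (-0.039 each), and without the libraries numbered 3 (-0.13). Over all genes, 0 to 4 were called with 1 library left out, 4 without the libraries numbered 3 and 1 with the length and GC correction and the replicate block, against 0 otherwise; all were small RNA genes (such as Mir215 and Snord22, chosen here after their values were seen). Rescaling to TPM moved the median log2 fold change of all genes to 0.15 and the share with a higher fitted value to 79%, against 48.4%. The members' fold changes under TPM include that shift, which was not subtracted. The upper ends of the ranges given above for Ctgf, Sparc, Thbs1 and Tgfbi are the TPM values. The replicate numbers were not treated as pairs in the main fit. Deviations of same-numbered libraries correlated at -0.107, 0.343 and 0.323 over genes, and IVCC replicate 1 correlated best with Sham replicate 2 (0.0681). IVCC replicate 2 correlated at -0.371 with Sham replicate 3, and IVCC replicate 3 at -0.364 with Sham replicate 2. Same-numbered libraries were thus alike for replicates 2 and 3 but not for replicate 1. With the replicate block, 2388 genes had an unadjusted p under 0.05, against 431, 0 were called, and Ctgf and Sparc reached an adjusted p of 0.0856 each in limma. The count was 671 after the length and GC correction, 1656 with that and the block, 780 without a filter and 282 with a filter at 5 FPKM. Leaving out IVCC replicate 1, 2 or 3 gave 214, 216 or 1039, and 1057 was the count without the libraries numbered 3. Of the members, 3 to 6 had an unadjusted p under 0.05 over all settings. The cause of these shifts was not tested. Ankrd1 is at the lowest level of the members, at a few nominal reads a library, and was tested only with no filter.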

Other observations

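Some matricellular genes and a receptor gene below the level tested are given as values only, chosen after they were seen. These scarce matricellular genes did not share a direction. Tnxb lay higher in IVCC without overlap (lowest IVCC value 0.898 FPKM, highest Sham value 0.787 FPKM). So did Wisp1 (lowest IVCC value 0.405 FPKM, highest Sham value 0.383 FPKM). Wisp2 was listed at 0 in every Sham library and reached at most 0.077 FPKM in IVCC, also without overlap. These values lay below every value of Ankrd1, which itself rested on a few nominal reads a library. Each IVCC library also had a larger nominal size than each Sham library, and the part of size in the Wisp2 values was not tested. Of all tested genes, 4.09% lay higher and 4.22% lower without overlap. Those shares are for genes above the level tested, and the shares among genes below it were not computed. Postn, which encodes periostin, a matricellular protein of fibrosis, had 0.401, 0.240 and 0.476 FPKM in the IVCC libraries, against 0.582, 0.931 and 0.721 FPKM in the Sham libraries, lower without overlap and opposite in direction to the 5 members that stood apart. Cd44, a receptor for osteopontin and hyaluronan, had 0.747, 0.750 and 0.361 FPKM in the IVCC libraries, against 0.472, 0.295 and 0.116 FPKM in the Sham libraries, with overlap. Tnc, which encodes tenascin C, had 0.262, 0.271 and 0.236 FPKM in the IVCC libraries, against 0.370, 0.280 and 0.0940 FPKM in the Sham libraries, which surround them.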
